A study of Homo sapiens with 4 samples.

Results

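The genes described are 31 that encode enzymes and regulators of sterol and fatty acid synthesis, chosen by name: 23 of the sterol pathway and 8 of fatty acid synthesis. All 31 were found in each of 4 libraries among 42113 gene models, and all 31 were among the 12742 genes counted as measured, for which the mean over the libraries had to reach 30 normalized counts. Each library is RNA sequencing of 1 group of A549 cells, an established line from a human lung cancer. The groups were cells with a stable lentiviral short hairpin RNA (shRNA) against LIMA1 given nutlin-3a at 10 µM, cells with a negative control shRNA given the same dose, and untreated cells of each line; RNA was taken 24 h after treatment. Nutlin-3a keeps the ubiquitin ligase MDM2 off p53 and so raises p53 activity, and the study asked how a knockdown of LIMA1, the gene of the actin-binding protein EPLIN, changes the genes that p53 switches on. All groups carry a lentiviral insert and the labels do not say whether a line is a pool or a clone, so lasting differences between the lines and effects of the shRNA cannot be told apart.

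Sterols are built from acetyl-CoA. The mevalonate arm makes isoprenoid units and joins them into farnesyl diphosphate, squalene synthase commits these to sterols, and a chain of oxidases, reductases and isomerases then turns lanosterol into cholesterol. Fatty acids come from the same acetyl-CoA through carboxylation, chain building by fatty acid synthase, elongation and desaturation. Most genes of both pathways are known targets of the SREBP transcription factors, which the protein SCAP escorts out of the endoplasmic reticulum when sterols are scarce and which the INSIG proteins hold back when sterols are plentiful. Active p53 is known to hold down the sterol pathway in some settings, and A549 carries wild-type p53.

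The promoters of 4 members are shown because the results turn on them: TM7SF2 and EBP differed most between nutlin-3a and untreated cells, HMGCS1 differed most between the lines, and SREBF2 encodes the SREBP that acts chiefly on sterol genes. Each line is the 250 bases before an annotated start in the RefSeq table for GRCh38.p14, written 5′ to 3′ on the gene's strand; the study's files were made on hg19, so these positions belong to the table alone. Where a gene had several windows, the one with the most CCAAT boxes is shown. The other HMGCS1 window, chr5:43313182-43313431, held 0 CCAAT boxes. Capitals mark the CCAAT box, here read on the opposite strand as ATTGG, and in SREBF2 also a match to the sterol regulatory element TCACNCCAC. The windows are chr11:65111622-65111871, plus strand, for TM7SF2; chrX:48521558-48521807, plus strand, for EBP; chr5:43313413-43313662, minus strand, for HMGCS1; and chr22:41832855-41833104, plus strand, for SREBF2.
TM7SF2: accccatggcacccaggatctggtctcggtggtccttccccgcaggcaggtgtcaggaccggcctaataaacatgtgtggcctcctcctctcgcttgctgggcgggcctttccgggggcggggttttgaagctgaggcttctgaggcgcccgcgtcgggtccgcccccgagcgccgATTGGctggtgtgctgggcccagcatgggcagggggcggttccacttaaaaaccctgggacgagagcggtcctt
EBP: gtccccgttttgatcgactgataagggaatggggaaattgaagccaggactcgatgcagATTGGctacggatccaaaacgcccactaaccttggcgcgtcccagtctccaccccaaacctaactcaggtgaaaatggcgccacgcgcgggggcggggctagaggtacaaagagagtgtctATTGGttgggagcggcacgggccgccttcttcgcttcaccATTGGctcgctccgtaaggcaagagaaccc
HMGCS1: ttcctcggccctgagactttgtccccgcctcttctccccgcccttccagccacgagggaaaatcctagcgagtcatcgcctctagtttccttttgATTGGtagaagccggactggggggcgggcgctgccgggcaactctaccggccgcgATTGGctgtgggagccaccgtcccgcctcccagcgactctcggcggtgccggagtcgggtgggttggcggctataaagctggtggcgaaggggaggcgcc
SREBF2: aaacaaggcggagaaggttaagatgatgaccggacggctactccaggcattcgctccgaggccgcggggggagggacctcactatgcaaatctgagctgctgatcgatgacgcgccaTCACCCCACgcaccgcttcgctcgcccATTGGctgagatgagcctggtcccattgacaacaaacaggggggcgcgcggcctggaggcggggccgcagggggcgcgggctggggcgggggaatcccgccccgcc

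The table had a window for 27 of the 31 members. At least 1 CCAAT box, on either strand, lay in a window of 19 of the 27 (70.4%), against 41.9% of the 9157 measured genes with a window and 37.0% of all 27305 genes in the table. The GC box GGGCGG lay in a window of 26 of 27 members (96.3%), against 75.6% of measured genes and 46.2% of all genes. The strict sterol regulatory element TCACNCCAC matched only in the window of SREBF2 (1 of 27, 3.70%), against 1.19% of measured genes and 1.09% of all genes. A p53 half-site by its consensus, a search added after values were seen, matched in windows of INSIG1 and MVK (2 of 27, 7.41%), against 6.63% of measured genes and 6.80% of all genes. No marked match overlaps another in the windows shown, while in INSIG1 the p53 half-site overlaps a GC box at its edge. A match describes the letters of the window and nothing about binding. TM7SF2, which was much higher with nutlin-3a, and EBP, which was much lower, both held a CCAAT box and a GC box and no p53 half-site in this window.

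Values are the authors' normalized fragment counts, which are not divided by gene length, so levels of different genes are not compared. Exons of 15 of the 31 members overlap another gene in GENCODE 29, mostly on the opposite strand, and no source says whether strand was used in counting, so reads of such pairs cannot be told apart. Differences are between log2(normalized count + 1) values, and the interval after a difference is a 95% counting interval of the fragments. Since each group is 1 library, there is no replicate error, no test and no p-value; every difference is between libraries. A difference of at least 0.5 in size, which is 1.41-fold, is called higher or lower. This size was chosen to fit a pathway whose genes moved little in earlier results of these data.

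Libraries held 15.2 to 16.7 M fragments. LIMA1 stood at 133 normalized counts in LIMA1 shRNA cells against 866 in control shRNA cells with nutlin-3a, and at 68.3 in LIMA1 shRNA cells against 416 in control shRNA cells without it, so the labels of the lines held. The p53 target CDKN1A stood at 48106 with nutlin-3a against 1178 untreated in LIMA1 shRNA cells, and at 34078 with nutlin-3a against 1066 untreated in control shRNA cells. All 8 markers of A549 cells were above 0 in every library, although the epithelial gene EPCAM was low, at 31.1 to 229, and lower in LIMA1 shRNA cells under both treatments. These 8 summed to 408674 to 557071 in a library. Of the 7 markers of leukocytes, endothelium, fibroblasts and alveolar type II cells, 2 to 6 were above 0 in a library. They summed to 20.4 to 88.6, most of it COL1A1, and CD3E was at 0 in every library. As these are bulk samples, fewer cells with a transcript and less of it in each cell cannot be told apart.

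Levels of the members varied over the libraries about as much as those of all measured genes, and TM7SF2 and EBP varied most. The highest library exceeded the lowest by a median of 1.48-fold over the 31 members, against 1.47-fold over all measured genes. The ratio was 5.37 for TM7SF2, 2.77 for EBP, 2.23 for HMGCS1 and 2.14 for ELOVL6, and it was under 1.2 for INSIG2, IDI1, FADS1, SCAP and LSS (5 of 31, 16.1%, against 16.5% of measured genes). Untreated LIMA1 shRNA cells held the highest value for 15 members and nutlin-3a-treated LIMA1 shRNA cells for 11, so most members peaked in a LIMA1 shRNA library. Among all measured genes these libraries held the highest value for 31.2% and 26.8%.

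**Figure D1:**
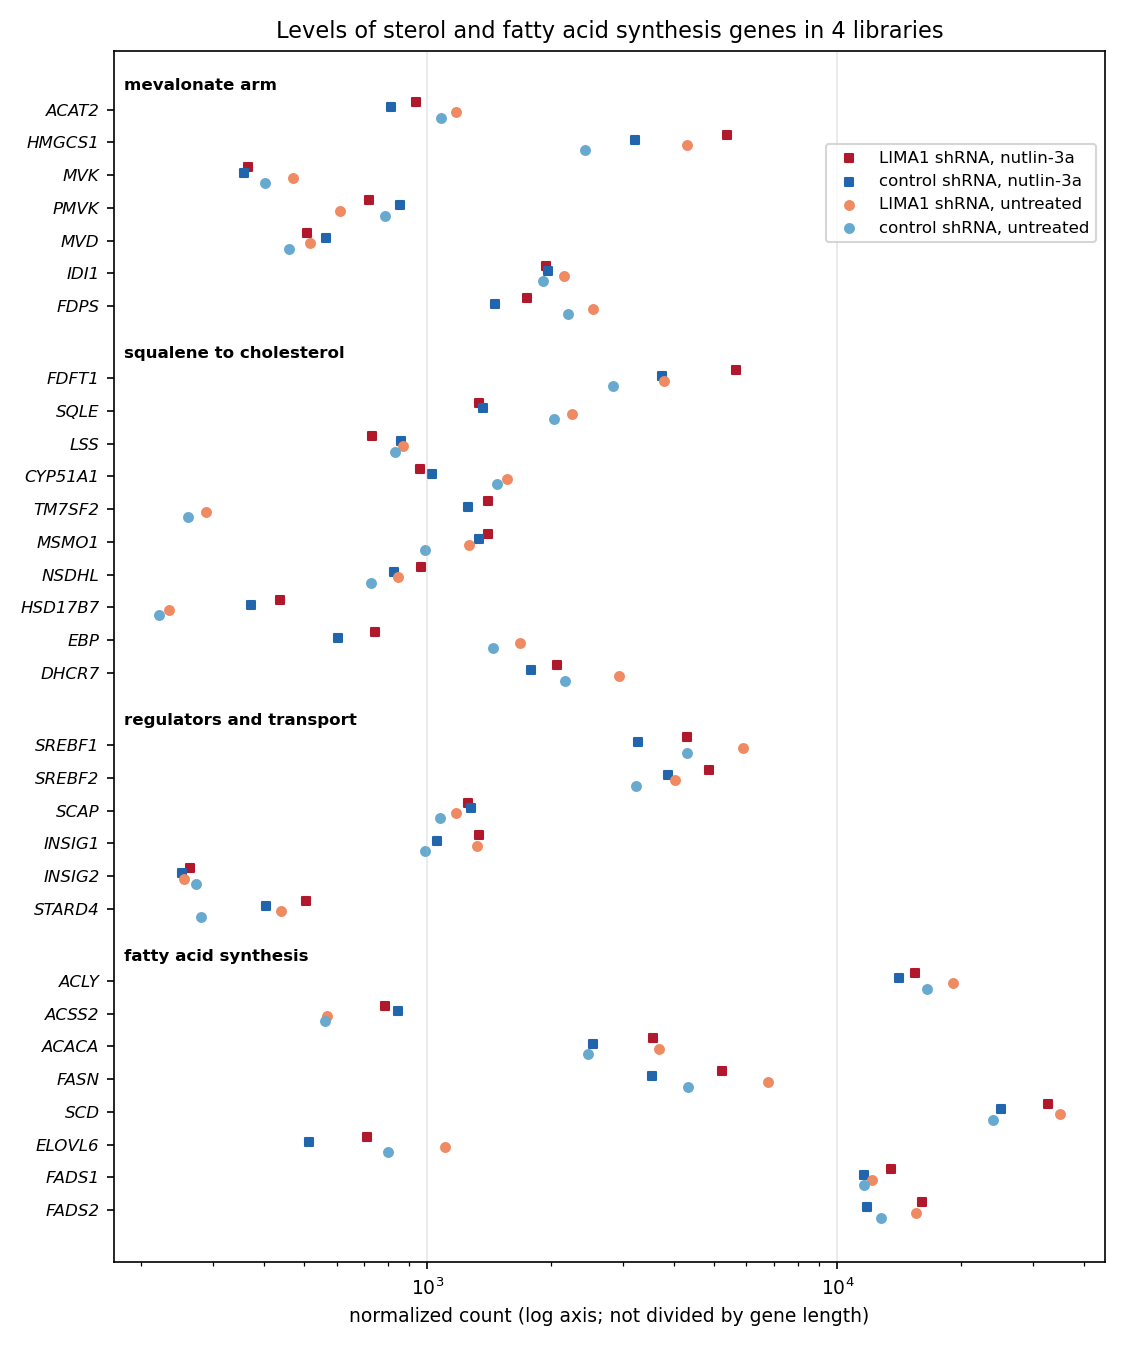
Normalized count of each of the 31 members in the 4 libraries (log axis; 1 point per library, grouped by role in the pathway). TM7SF2 and EBP show the widest gap between nutlin-3a squares and untreated circles, while for HMGCS1, FASN and ACACA both LIMA1 shRNA points (red and orange) lie to the right of both control shRNA points (blue).

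Nutlin-3a went with lower levels of several sterol enzymes from farnesyl diphosphate to cholesterol and with a much higher level of another enzyme of the same stretch, TM7SF2. Lower in both lines were FDPS, SQLE, CYP51A1, EBP and, among the fatty acid genes, the elongase ELOVL6; higher in both were TM7SF2 and HSD17B7. In LIMA1 shRNA cells 3 of 31 members were called higher (9.68%; 18.4% of all measured genes) and 6 lower (19.4%; 17.9% of measured genes). In control shRNA cells 4 were called higher (12.9%; 16.3% of measured genes) and 5 lower (16.1%; 16.0% of measured genes). These shares are near or under the background, so what follows describes single genes and not a movement of the pathways.

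Calls in both lines covered 2 members higher, against 13.4% of measured genes, and 5 lower, against 13.0%. The median difference of the 23 sterol genes was 0.01 in LIMA1 shRNA cells and 0.10 in control shRNA cells, and that of the 8 fatty acid genes was -0.07 and -0.06 in those lines. Over all measured genes the median was -0.02 in each line. The size of the fatty acid medians depended on the setting. In LIMA1 shRNA cells the median was 0.0023 under upper-quartile scaling, -0.20 without shared-read members and -0.22 after the length and GC trend was removed. In control shRNA cells it was -0.0015, -0.10 and -0.19 under those settings. Upper-quartile scaling shifted all measured genes as well, to medians of 0.05 in LIMA1 shRNA cells and 0.04 in control shRNA cells. Without shared-read members the medians of all measured genes were -0.03 and -0.02, and with the trend removed -0.04 and -0.03.

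Among the 7 genes of the mevalonate arm, only FDPS passed the call size, and HMGCS1, at the start of the arm, leaned the other way. FDPS, whose product makes farnesyl diphosphate, stood at 1745 normalized counts with nutlin-3a against 2533 untreated in LIMA1 shRNA cells, and at 1459 with nutlin-3a against 2205 untreated in control shRNA cells. Both nutlin-3a libraries lay below both untreated ones, with differences of -0.54 (-0.63 to -0.45) in LIMA1 shRNA cells and -0.60 (-0.69 to -0.50) in control shRNA cells. FDPS has named pseudogenes and an overlapping antisense gene, and some of its values were not whole fragments, so its reads may be shared with them; in LIMA1 shRNA cells its difference was -0.46 under upper-quartile scaling, short of the call.

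HMGCS1 encodes HMG-CoA synthase, which condenses acetyl-CoA with acetoacetyl-CoA. It stood at 5393 with nutlin-3a against 4289 untreated in LIMA1 shRNA cells, and at 3207 with nutlin-3a against 2419.7 untreated in control shRNA cells. The differences were 0.33 (0.27 to 0.39) in LIMA1 shRNA cells and 0.41 (0.33 to 0.48) in control shRNA cells, below the call size in each line. ACAT2, the cytosolic thiolase that supplies acetoacetyl-CoA, differed by -0.32 in LIMA1 shRNA cells and -0.41 in control shRNA cells.

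The mevalonate kinase gene MVK stood at 364 with nutlin-3a against 470.0 untreated in LIMA1 shRNA cells, and at 356 with nutlin-3a against 401 untreated in control shRNA cells, differences of -0.37 in LIMA1 shRNA cells and -0.17 in control shRNA cells. PMVK, the next kinase of the arm, was at 720.4 with nutlin-3a against 611 untreated in LIMA1 shRNA cells, and at 858 with nutlin-3a against 788 untreated in control shRNA cells. Its differences were 0.24 (0.08 to 0.40) in LIMA1 shRNA cells and 0.12 (-0.02 to 0.26) in control shRNA cells. MVK and PMVK, which act one after the other, thus leaned in opposite directions in both lines without reaching the call size. In control shRNA cells the counting intervals of both genes included 0, that of MVK running from -0.38 to 0.04.

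The decarboxylase gene MVD and the isomerase gene IDI1, which yield the isoprene units, were not called in either line. MVD differed by -0.02 (-0.21 to 0.16) in LIMA1 shRNA cells and 0.30 (0.12 to 0.48) in control shRNA cells, so only control shRNA cells had an interval clear of 0. IDI1, at 1911 to 2149 in all 4 libraries, differed by -0.14 in LIMA1 shRNA cells and 0.04 in control shRNA cells.

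The stretch from squalene to cholesterol held the widest differences, in both directions. TM7SF2 encodes a sterol reductase that acts just after the demethylation of lanosterol. It stood at 1406 normalized counts with nutlin-3a against 288 untreated in LIMA1 shRNA cells, and at 1259 with nutlin-3a against 261 untreated in control shRNA cells. Both nutlin-3a libraries lay far above both untreated ones. The differences were 2.28 (2.10 to 2.48) in LIMA1 shRNA cells and 2.26 (2.08 to 2.46) in control shRNA cells, folds of 4.88 and 4.82 that ranked 188 and 147 from the top of the measured genes in those lines. TM7SF2 shares exon sequence on the same strand with VPS51, a gene of vesicle transport looked up after values were seen, although all values of TM7SF2 were whole fragments. VPS51 stood at 1074 with nutlin-3a against 1024 untreated in LIMA1 shRNA cells, and at 1329 with nutlin-3a against 1074 untreated in control shRNA cells, with differences of 0.07 in LIMA1 shRNA cells and 0.31 in control shRNA cells.

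EBP, the sterol isomerase that moves the ring double bond after that step, stood at 746 with nutlin-3a against 1678 untreated in LIMA1 shRNA cells, and at 605 with nutlin-3a against 1449 untreated in control shRNA cells. Both nutlin-3a libraries lay below both untreated ones, with differences of -1.17 (-1.30 to -1.04) in LIMA1 shRNA cells and -1.26 (-1.40 to -1.12) in control shRNA cells, the lowest differences of any member. EBP and TM7SF2 were the members called in both lines at a size of 1, where the background was 4.58% of measured genes lower and 4.7% higher.

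SQLE and CYP51A1 were also lower with nutlin-3a. SQLE, squalene epoxidase, a rate-limiting enzyme of the sterol branch, stood at 1335 with nutlin-3a against 2248 untreated in LIMA1 shRNA cells, and at 1369 with nutlin-3a against 2041 untreated in control shRNA cells, with differences of -0.75 (-0.85 to -0.65) in LIMA1 shRNA cells and -0.58 (-0.67 to -0.48) in control shRNA cells. CYP51A1, the lanosterol demethylase whose product TM7SF2 reduces, stood at 957 with nutlin-3a against 1567 untreated in LIMA1 shRNA cells, and at 1024 with nutlin-3a against 1479 untreated in control shRNA cells, with differences of -0.71 (-0.83 to -0.59) in LIMA1 shRNA cells and -0.53 (-0.64 to -0.42) in control shRNA cells. For both genes the nutlin-3a libraries lay below the untreated ones and the lines were close within each treatment. CYP51A1 was just past the call size in control shRNA cells, and there its difference was -0.47 under upper-quartile scaling, -0.50 under median-of-ratios scaling and -0.41 after the length and GC trend was removed, all short of the call.

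HSD17B7, which reduces a sterol ketone during removal of the methyl groups, was the other member higher in both lines. It stood at 437 with nutlin-3a against 234 untreated in LIMA1 shRNA cells, and at 371 with nutlin-3a against 222 untreated in control shRNA cells, with differences of 0.90 (0.67 to 1.14) in LIMA1 shRNA cells and 0.74 (0.51 to 0.99) in control shRNA cells. Both nutlin-3a libraries lay above both untreated ones, though HSD17B7 has named pseudogenes that could take or lend reads.

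FDFT1 and DHCR7, at the start and the end of this stretch, passed the call size in LIMA1 shRNA cells and not in control shRNA cells. FDFT1, squalene synthase, stood at 5652 with nutlin-3a against 3784 untreated in LIMA1 shRNA cells, and at 3741 with nutlin-3a against 2842 untreated in control shRNA cells, with differences of 0.58 (0.52 to 0.64) in LIMA1 shRNA cells and 0.40 (0.33 to 0.47) in control shRNA cells. DHCR7, the reductase that makes cholesterol from its immediate precursor, stood at 2070.0 with nutlin-3a against 2939 untreated in LIMA1 shRNA cells, and at 1786 with nutlin-3a against 2167 untreated in control shRNA cells, with differences of -0.51 (-0.59 to -0.42) in LIMA1 shRNA cells and -0.28 (-0.37 to -0.19) in control shRNA cells. Each gene had the same sign in both lines, and the difference between the responses, 0.18 for FDFT1 and -0.23 for DHCR7, was itself under the call size. The DHCR7 call in LIMA1 shRNA cells lies at the edge of the call size. The value was -0.43 under upper-quartile scaling and -0.48 under median-of-ratios scaling. It was -0.499 under equal totals and -0.4995 with a pseudocount of 30, so all of these fell short of the call.

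The other 3 enzymes of the stretch were not called in either line. LSS, lanosterol synthase, differed by -0.26 in LIMA1 shRNA cells and 0.05 in control shRNA cells. MSMO1, the methylsterol oxidase, differed by 0.15 in LIMA1 shRNA cells and 0.43 in control shRNA cells. NSDHL, the dehydrogenase that acts after MSMO1, differed by 0.18 in LIMA1 shRNA cells and 0.18 in control shRNA cells. Along the pathway CYP51A1 was called lower. The next enzymes, TM7SF2, MSMO1, NSDHL and HSD17B7, were all above 0 in both lines, but only TM7SF2 and HSD17B7 were called. Of all measured genes 48.5% were above 0 in each line. EBP, which follows them, was called lower.

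Of the 6 regulators and transport genes only STARD4 passed the call size, and only in control shRNA cells. STARD4, a carrier of cholesterol between membranes, stood at 506 with nutlin-3a against 440.3 untreated in LIMA1 shRNA cells, and at 404 with nutlin-3a against 280.0 untreated in control shRNA cells, with differences of 0.20 (0.01 to 0.39) in LIMA1 shRNA cells and 0.53 (0.31 to 0.75) in control shRNA cells; with a pseudocount of 30 the control shRNA value was 0.49. SREBF1, which encodes the SREBP that acts chiefly on fatty acid genes, stood at 4308 with nutlin-3a against 5879.7 untreated in LIMA1 shRNA cells, and at 3265 with nutlin-3a against 4305 untreated in control shRNA cells. SREBF2 stood at 4862 with nutlin-3a against 4006 untreated in LIMA1 shRNA cells, and at 3869 with nutlin-3a against 3225 untreated in control shRNA cells.

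The 2 SREBP genes thus leaned in opposite directions with nutlin-3a. The differences of SREBF1 were -0.45 (-0.51 to -0.39) in LIMA1 shRNA cells and -0.40 (-0.46 to -0.33) in control shRNA cells, and those of SREBF2 were 0.28 (0.22 to 0.34) in LIMA1 shRNA cells and 0.26 (0.20 to 0.33) in control shRNA cells; none reached the call size. SREBF2 has an overlapping antisense gene and values that were not whole fragments, so its reads may be shared.

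SCAP and the INSIG genes varied little with nutlin-3a. SCAP stood at 1254 with nutlin-3a against 1172 untreated in LIMA1 shRNA cells, and at 1276 with nutlin-3a against 1074 untreated in control shRNA cells, with differences of 0.10 in LIMA1 shRNA cells and 0.25 in control shRNA cells. INSIG1 differed by 0.01 in LIMA1 shRNA cells and 0.10 in control shRNA cells. INSIG2, the flattest member, stood at 264 with nutlin-3a against 255 untreated in LIMA1 shRNA cells, and at 252 with nutlin-3a against 272 untreated in control shRNA cells, with differences of 0.05 in LIMA1 shRNA cells and -0.11 in control shRNA cells.

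Among the 8 fatty acid genes ELOVL6 was lower with nutlin-3a in both lines and ACSS2 was higher in control shRNA cells. ELOVL6, the elongase that lengthens palmitate, stood at 713 with nutlin-3a against 1104 untreated in LIMA1 shRNA cells, and at 515 with nutlin-3a against 801 untreated in control shRNA cells. Its differences were -0.63 (-0.77 to -0.49) in LIMA1 shRNA cells and -0.64 (-0.80 to -0.48) in control shRNA cells, nearly the same size in each line. ACSS2, which makes acetyl-CoA from acetate in the cytosol, stood at 787 with nutlin-3a against 570.0 untreated in LIMA1 shRNA cells, and at 849.7 with nutlin-3a against 561 untreated in control shRNA cells.

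Both nutlin-3a values of ACSS2 were above both untreated ones, but with differences of 0.46 (0.31 to 0.63) in LIMA1 shRNA cells and 0.60 (0.45 to 0.75) in control shRNA cells only control shRNA cells passed the call size. ACLY, which makes acetyl-CoA from citrate, leaned the other way, at -0.31 in LIMA1 shRNA cells and -0.23 in control shRNA cells. FASN, fatty acid synthase, also leaned lower, at -0.37 in LIMA1 shRNA cells and -0.29 in control shRNA cells.

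ACACA, SCD, FADS1 and FADS2 were close to level with nutlin-3a. ACACA, the carboxylase that makes malonyl-CoA, differed by -0.05 in LIMA1 shRNA cells and 0.04 in control shRNA cells. The desaturase genes differed by -0.10 in LIMA1 shRNA cells and 0.06 in control shRNA cells for SCD, by 0.15 in LIMA1 shRNA cells and -0.0073 in control shRNA cells for FADS1 and by 0.05 in LIMA1 shRNA cells and -0.11 in control shRNA cells for FADS2. FADS1 and FADS2 overlap each other on opposite strands, and FADS2 also shares exon sequence on the same strand with FEN1. Both FADS genes have values that were not whole fragments, so their counts may be mixed, for FADS2 also with those of FEN1.

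**Figure D2:**
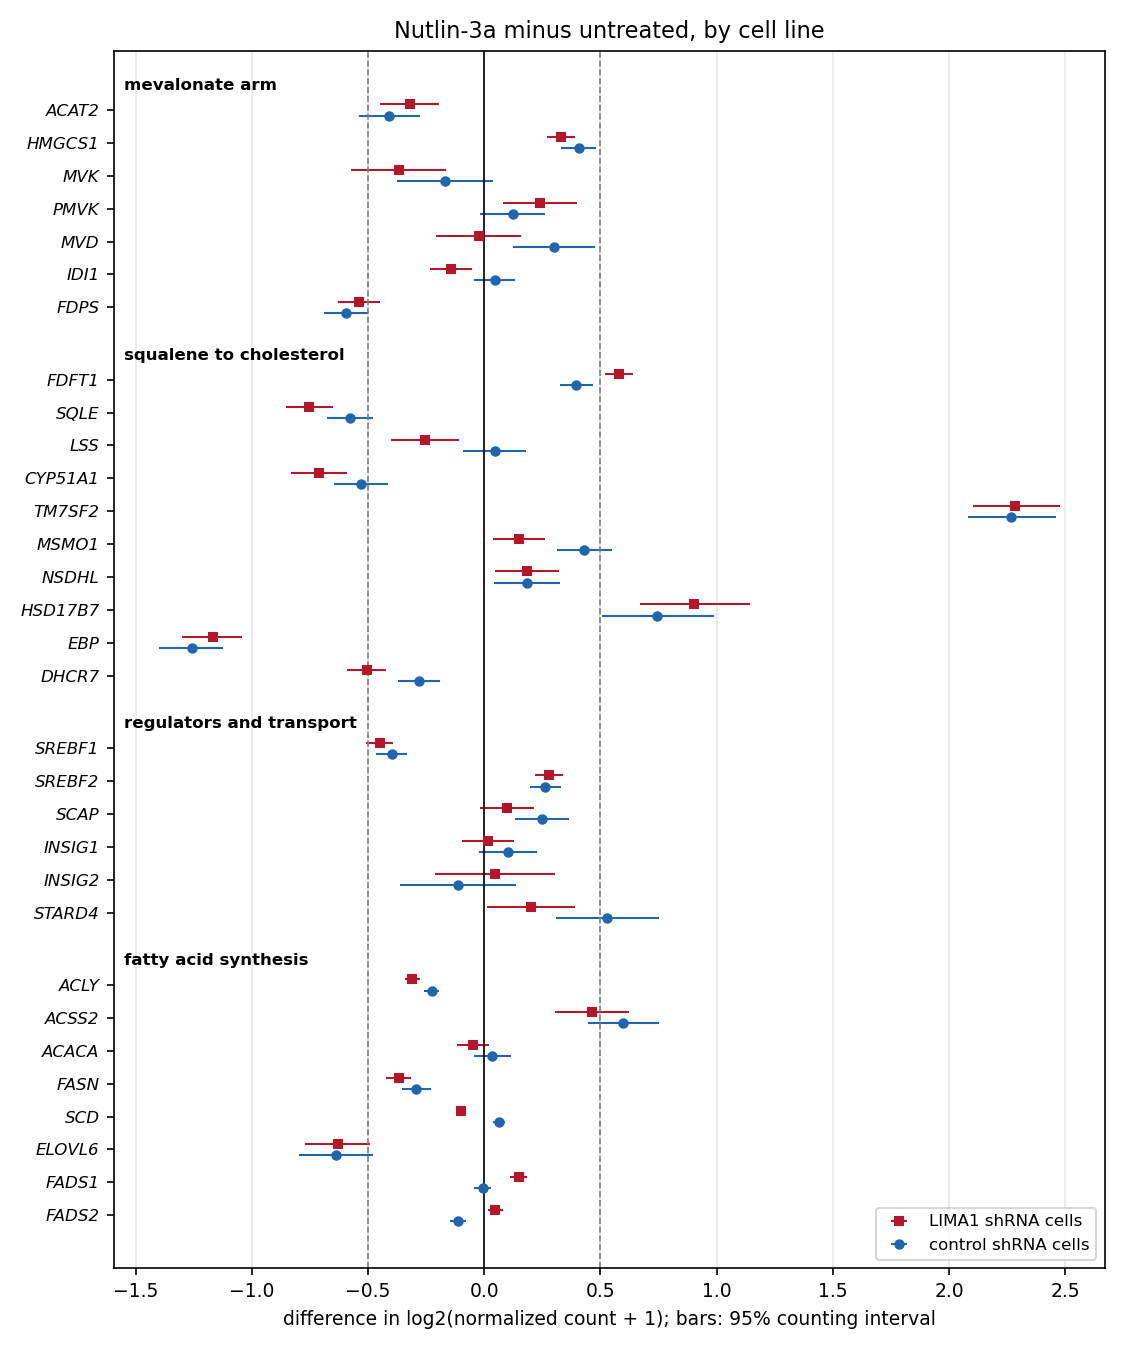
Difference of log2(normalized count + 1) between nutlin-3a and untreated cells for each member, in LIMA1 shRNA and control shRNA cells, with 95% counting intervals; dashed lines mark the call size of 0.5. TM7SF2 lies near 2.3 and EBP near -1.2 in both lines, and SQLE, CYP51A1, FDPS and ELOVL6 lie beyond -0.5 in both.

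LIMA1 shRNA cells held somewhat higher levels of most members than control shRNA cells, with HMGCS1 and FASN higher by at least 0.5 under both treatments. By their medians the fatty acid genes stood further from 0 than the sterol genes. With nutlin-3a, 3 of 31 members were called higher (HMGCS1, FDFT1 and FASN; 9.68%, against 5.81% of measured genes) and 0 lower (against 6.74%). Without it, 5 were called higher (HMGCS1, STARD4, ACACA, FASN and SCD; 16.1%, against 4.96% of measured genes) and 0 lower (against 7.71%). HMGCS1 and FASN were called under both treatments (2 of 31, 6.45%, against 2.47% of measured genes) and 0 members lower under both (against 4.07%); the pair of comparisons share no library.

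By sign alone, the difference was above 0 for 29 of 31 members without nutlin-3a, all but PMVK and INSIG2, against 54.4% of measured genes. With nutlin-3a it was above 0 for 23 of 31, against 54.6%. It was above 0 under both treatments for 22 of 31 members, against 40.6%.

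The median difference of the fatty acid genes was 0.41 with nutlin-3a and 0.37 without, and that of the sterol genes was 0.20 under each treatment. Over all measured genes the medians were 0.03 and 0.02. All 8 fatty acid genes were above 0 without nutlin-3a and 7 of 8 with it, the exception being ACSS2. Under upper-quartile scaling and under equal totals ACSS2 was below 0 without nutlin-3a as well.

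HMGCS1 showed the widest gap between the lines. Its differences were 0.75 (0.69 to 0.81) with nutlin-3a and 0.83 (0.75 to 0.90) without it, folds of 1.68 and 1.77. They ranked 324 and 219 from the top of the 12742 measured genes under those treatments. Both LIMA1 shRNA libraries lay above both control shRNA libraries.

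The rest of the mevalonate arm did not follow HMGCS1 in size. FDPS differed between the lines by 0.26 with nutlin-3a and 0.20 without it, and ACAT2 by 0.20 with nutlin-3a and 0.11 without it. PMVK stood below 0 under both treatments, at -0.25 (-0.40 to -0.10) with nutlin-3a and -0.37 (-0.52 to -0.22) without it, the lowest member in each and still within the call size. MVK, MVD and IDI1 lay between -0.16 and 0.23.

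In the stretch from squalene to cholesterol FDFT1 was the only member called. Its differences were 0.59 (0.53 to 0.66) with nutlin-3a and 0.41 (0.34 to 0.48) without it, with the nutlin-3a library of LIMA1 shRNA cells the highest of the 4 and the untreated library of control shRNA cells the lowest. DHCR7 differed by 0.21 (0.12 to 0.31) with nutlin-3a and 0.44 (0.36 to 0.52) without it, and EBP by 0.30 with nutlin-3a and 0.21 without it. TM7SF2, the member furthest apart with nutlin-3a, differed between the lines by only 0.16 with nutlin-3a and 0.14 without it.

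All 10 genes of this stretch were above 0 without nutlin-3a, at 0.06 to 0.44, while with it SQLE, LSS and CYP51A1 were below 0. The values were -0.04 with nutlin-3a and 0.14 without it for SQLE and -0.10 with nutlin-3a and 0.08 without it for CYP51A1. LSS had the lowest value of the stretch under both treatments, at -0.24 with nutlin-3a and 0.06 without it. MSMO1, NSDHL and HSD17B7 stood between 0.07 and 0.36.

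Among the regulators STARD4 was the member called, without nutlin-3a. It differed between the lines by 0.32 (0.13 to 0.52) with nutlin-3a and 0.65 (0.44 to 0.87) without it, and its untreated control shRNA library was well below the other 3. SREBF1 differed by 0.40 (0.33 to 0.47) with nutlin-3a and 0.45 (0.39 to 0.51) without it. SREBF2 differed by 0.33 with nutlin-3a and 0.31 without it and INSIG1 by 0.34 with nutlin-3a and 0.42 without it.

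Both SREBP genes and INSIG1, itself a known SREBP target, thus stood above 0 in LIMA1 shRNA against control shRNA cells under both treatments, each within the call size. SCAP and INSIG2 were near level, at -0.02 with nutlin-3a and 0.13 without it for SCAP and 0.06 with nutlin-3a and -0.09 without it for INSIG2.

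Among the fatty acid genes FASN, ACACA and SCD were called higher in LIMA1 shRNA cells without nutlin-3a. FASN stood at 5242 normalized counts in LIMA1 shRNA cells against 3532 in control shRNA cells with nutlin-3a, and at 6762 in LIMA1 shRNA cells against 4325 in control shRNA cells without it. ACACA stood at 3542 in LIMA1 shRNA cells against 2531 in control shRNA cells with nutlin-3a, and at 3664 in LIMA1 shRNA cells against 2471 in control shRNA cells without it. SCD, the stearoyl-CoA desaturase, stood at 32564 in LIMA1 shRNA cells against 25017 in control shRNA cells with nutlin-3a, and at 34878 in LIMA1 shRNA cells against 23929 in control shRNA cells without it.

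For each of these 3 genes both LIMA1 shRNA libraries lay above both control shRNA libraries. The differences of FASN were 0.57 (0.51 to 0.63) with nutlin-3a and 0.64 (0.59 to 0.70) without it, those of ACACA 0.48 (0.41 to 0.56) with nutlin-3a and 0.57 (0.50 to 0.64) without it and those of SCD 0.38 (0.36 to 0.40) with nutlin-3a and 0.54 (0.52 to 0.57) without it. After the length and GC trend was removed the FASN value with nutlin-3a was 0.47, and without nutlin-3a the SCD value was 0.49 under upper-quartile scaling and 0.50, just short of the call, under equal totals.

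ELOVL6 differed by 0.47 (0.30 to 0.64) with nutlin-3a and 0.46 (0.33 to 0.59) without it and FADS2 by 0.44 with nutlin-3a and 0.28 without it, both within the call size. ACLY differed by 0.13 with nutlin-3a and 0.21 without it, FADS1 by 0.22 with nutlin-3a and 0.06 without it and ACSS2 by -0.11 with nutlin-3a and 0.02 without it. EPCAM and COL1A1, markers checked above, were also unequal between the lines, and both were lower in LIMA1 shRNA cells under both treatments. EPCAM stood at 31.1 in LIMA1 shRNA cells against 111 in control shRNA cells with nutlin-3a. Without nutlin-3a it stood at 82.1 in LIMA1 shRNA cells against 229 in control shRNA cells. KRT19, also an A549 marker, went the other way, with differences of 0.77 with nutlin-3a and 0.69 without it. KRT19 stood at 5840 in LIMA1 shRNA cells against 3420 in control shRNA cells with nutlin-3a. Without nutlin-3a it stood at 2061 in LIMA1 shRNA cells against 1278 in control shRNA cells. The part of these markers in the differences between the lines was not tested.

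**Figure D3:**
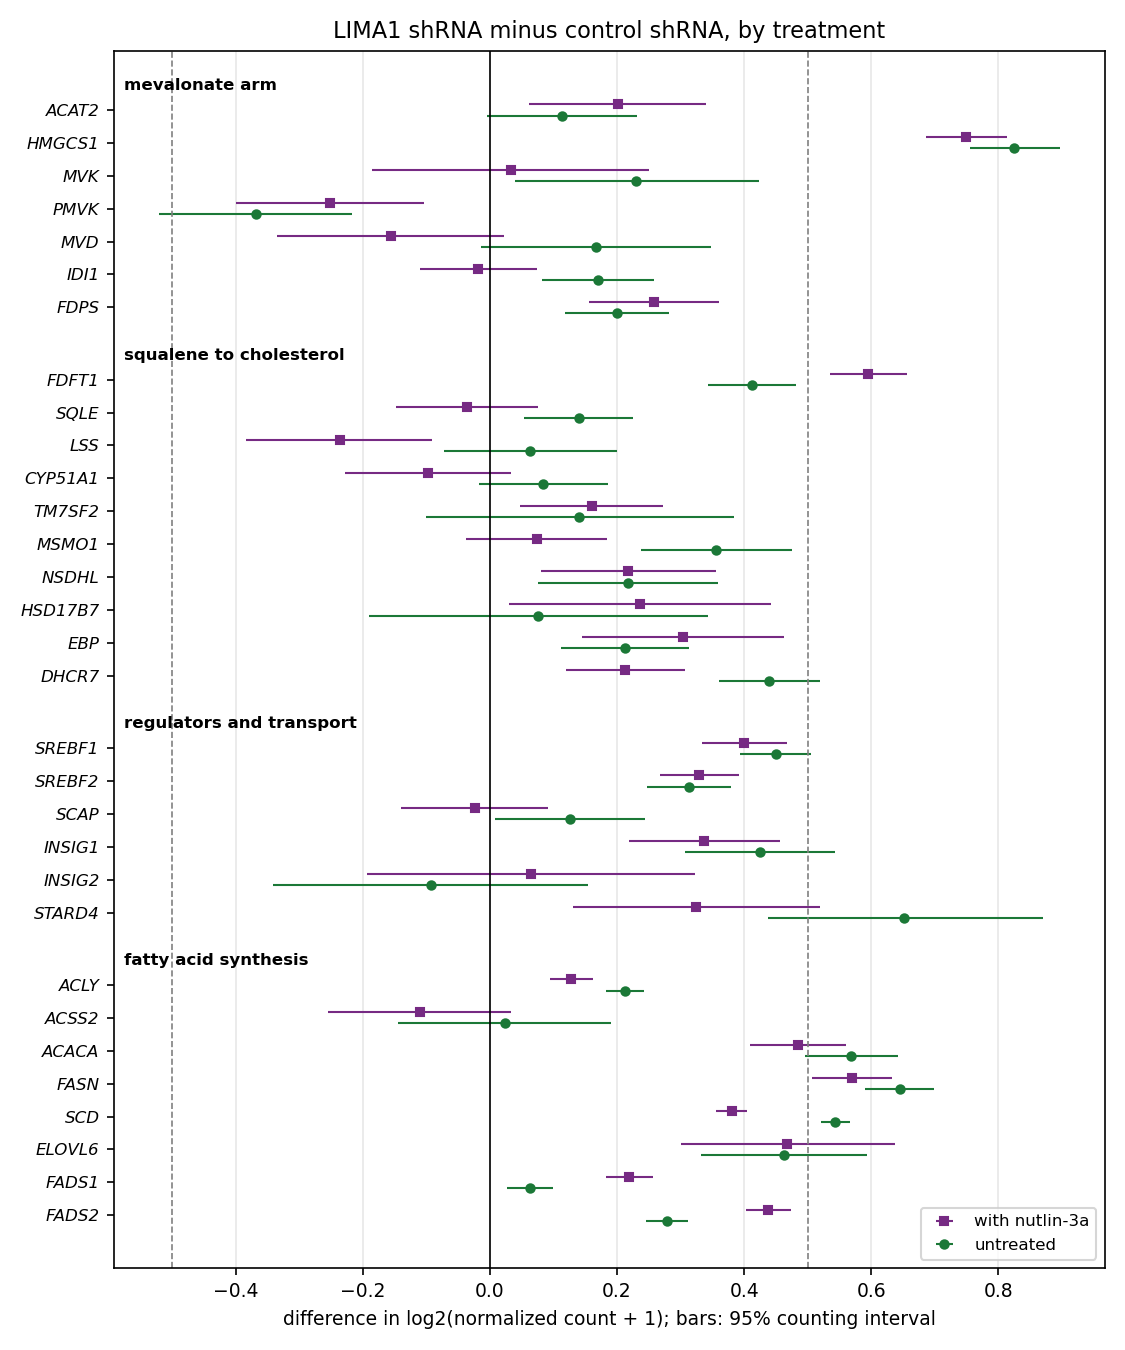
Difference of log2(normalized count + 1) between LIMA1 shRNA and control shRNA cells for each member, with and without nutlin-3a, with 95% counting intervals; dashed lines mark the call size of 0.5. HMGCS1 (0.75 and 0.83) and FASN (0.57 and 0.64) lie beyond the dashed line under both treatments, and no member lies below -0.5.

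The study's own question is whether the response to nutlin-3a differs between the lines. For these genes no response difference, taken as the nutlin-3a difference in LIMA1 shRNA cells less the one in control shRNA cells, reached the call size: 0 of 31 were called higher (against 5.17% of measured genes) and 0 lower (against 4.05%). Values ran between -0.33 at STARD4 and 0.18 at FDFT1. The median was -0.08 for the sterol genes and -0.08 for the fatty acid genes, against 0.0087 over all measured genes. With 1 library per group these values have no replicate error, so they do not show that the responses were alike.

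TM7SF2 and EBP, the members with the largest nutlin-3a differences, had responses of nearly the same size in both lines. The response difference was 0.02 for TM7SF2, 0.09 for EBP and 0.0054 for ELOVL6. After STARD4, the lowest were MVD at -0.32, LSS at -0.30, MSMO1 at -0.28, DHCR7 at -0.23 and MVK at -0.20. STARD4, MVD and MSMO1 had their lowest level in untreated control shRNA cells, while LSS, DHCR7 and MVK did not. That library held the lowest value for 15 of all 31 members (48.4%, against 23.3% of measured genes).

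**Figure D4:**
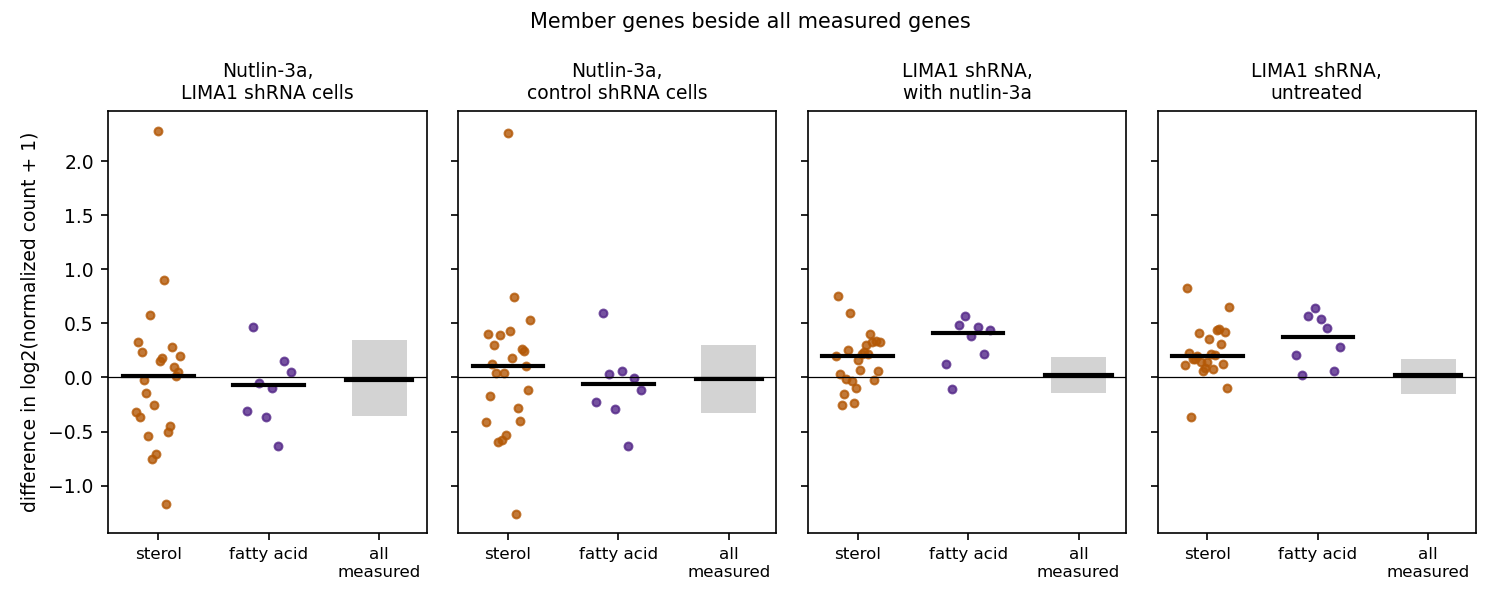
Median difference of log2(normalized count + 1), of the 23 sterol genes, the 8 fatty acid genes and all 12742 measured genes in each comparison (points, members; black lines, medians; grey boxes, quartiles of all measured genes). The fatty acid medians between the lines, 0.41 and 0.37, stand furthest from those of all measured genes, 0.03 and 0.02.

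Neighbouring genes of the same pathways were read beside the members: 13 of sterol handling, 16 of fatty acid handling and 7 of cholesterol efflux and its nuclear receptors, all of them measured. With nutlin-3a the sterol neighbours called in both lines were NPC2, a lysosomal cholesterol carrier, higher by 0.84 in LIMA1 shRNA cells and 0.54 in control shRNA cells, and TMEM97, a regulator of cholesterol transport, with -0.57 in LIMA1 shRNA cells and -0.58 in control shRNA cells. Each of these is 1 of 13 sterol neighbours (7.69%), against 13.4% of measured genes called higher in both lines and 13.0% lower. Of the 16 fatty acid neighbours 3 were called higher in both lines (18.8%, against the same 13.4%) and 0 lower: the desaturase homologues FADS3, by 1.44 in LIMA1 shRNA cells and 1.40 in control shRNA cells, and SCD5, by 0.97 in LIMA1 shRNA cells and 1.14 in control shRNA cells, and the elongase ELOVL7, by 0.74 in LIMA1 shRNA cells and 0.51 in control shRNA cells. These shares are near or under the background. SCD and FADS1, relatives of SCD5 and FADS3 among the members, were not called.

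ABCA1, the pump that exports cholesterol, had the largest nutlin-3a difference among members and neighbours. It stood at 1275 normalized counts with nutlin-3a against 214 untreated in LIMA1 shRNA cells, and at 767 with nutlin-3a against 149 untreated in control shRNA cells. The differences were 2.57 (2.37 to 2.79) in LIMA1 shRNA cells and 2.36 (2.12 to 2.62) in control shRNA cells, and between the lines 0.73 (0.60 to 0.86) with nutlin-3a and 0.52 (0.22 to 0.83) without it. Of the other 6 efflux genes only the receptor partner RXRA was called, in control shRNA cells, at 0.48 in LIMA1 shRNA cells and 0.51 in control shRNA cells. With ABCA1 it made 2 of 7 efflux genes called higher in control shRNA cells (28.6%, against 16.3% of measured genes).

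Between the lines the neighbour that stood out was ACSL4, which activates long polyunsaturated fatty acids. It stood at 2621 in LIMA1 shRNA cells against 1258 in control shRNA cells with nutlin-3a, and at 2583 in LIMA1 shRNA cells against 1187 in control shRNA cells without it, with differences of 1.06 (0.96 to 1.16) with nutlin-3a and 1.12 (1.02 to 1.22) without it, larger than those of any member. The other fatty acid neighbours called between the lines, MID1IP1, LPIN1 and SCD5, were called higher without nutlin-3a and not with it. With ACSL4 they made 4 of 16 fatty acid neighbours called higher without nutlin-3a, against 4.96% of measured genes. With nutlin-3a 1 of 16 was called higher, against 5.81% of measured genes. Of the sterol neighbours 0 of 13 were called higher under either treatment, against the same shares. No sterol or fatty acid neighbour was called lower, against 6.74% of measured genes with nutlin-3a and 7.71% without it. Called in LIMA1 shRNA cells with nutlin-3a and not in control shRNA cells were ACACB, at 0.72 in LIMA1 shRNA cells and 0.23 in control shRNA cells, ELOVL5, at -0.59 in LIMA1 shRNA cells and -0.41 in control shRNA cells, and MID1IP1, at -0.58 in LIMA1 shRNA cells and -0.08 in control shRNA cells.

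LBR, a nuclear envelope protein that is also a sterol reductase of the same step as TM7SF2, was looked up after its values had been seen. It stood at 1287 with nutlin-3a against 3598 untreated in LIMA1 shRNA cells, and at 1084 with nutlin-3a against 3116 untreated in control shRNA cells. Its differences were -1.48 (-1.58 to -1.39) in LIMA1 shRNA cells and -1.52 (-1.62 to -1.42) in control shRNA cells, so the 2 genes whose products can carry out that step differed in opposite directions with nutlin-3a in both lines.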

How the data were processed

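RNA sequencing was read from 4 libraries, 1 per group, with groups taken from the sample titles; the titles write si where the protocols write shRNA. Per the submitters' processing notes, Cuffnorm 2.2.1, Bowtie2 2.0.12 and bcl2fastq 1.8.3 were used with build hg19, with no role stated for any of them. The sources used here do not name the annotation. The authors deposited 1 signal value per gene and library; judged from the values, it is a fragment count times 1 factor per library, not divided by length. Between 0.5 and 1000 fragments, 85.5% to 86.3% of values lay within 0.1 of a whole number of fragments, under the 95% needed for a count test, and none was run. Values off these steps, at 6 members, were taken as reads shared with another gene.

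Differences were taken of log2(value + 1) for genes with a mean of at least 30 and called at 0.5. Each interval compares the fragments of 2 libraries by the exact Clopper-Pearson method at 95%, and without molecular identifiers it covers counting error only. Depth was 15.2 to 16.7 M fragments. With 1 library per group no test was made. The members, roles, neighbour lists and call size were chosen with earlier results of these data known. Members called in any comparison of 2 libraries, and the highest and lowest of each role group, are given with all 4 values. Alternatives were other pseudocounts (10 and 30), scalings, filters and call sizes, leaving out shared-read members, and, added after the data were seen, subtraction of a trend over transcript length and GC share. Gene overlaps came from GENCODE 29 and promoters from RefSeq. The calculations, tested on simulated data, used scipy 1.17.1, pandas 2.3.3 and numpy 2.4.6 under Python 3.11.15.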

Additional observations from a re-analysis of the deposited data

Results flagged for a closer look

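SCD and FADS2, both fatty acid desaturase genes, were picked out because their nutlin-3a differences had opposite signs in the lines with counting intervals clear of 0. The SCD difference was -0.10 in LIMA1 shRNA cells and 0.064 in control shRNA cells. The FADS2 difference was 0.048 in LIMA1 shRNA cells and -0.11 in control shRNA cells. After the length and GC trend was removed the FADS2 value in LIMA1 shRNA cells was -0.14, below 0 as in control shRNA cells. The difference between the lines was not tested, as each group is 1 library, and all of these values are well under the call size. Both genes are abundant, so their counting intervals are narrow. FADS2 has values that were not whole fragments and overlaps FEN1 on the same strand and FADS1 on the opposite one. Its counting intervals do not cover error from shared reads.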

How the results depend on the processing

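Of 26 called values, 26 were still called with a pseudocount of 10, 24 with a pseudocount of 30, with equal totals, with median-of-ratios scaling and after removal of the length and GC trend, and 22 with upper-quartile scaling; 0 changed sign. No count of called sterol or fatty acid genes moved by over 1.5 times under other pseudocounts, equal totals, median-of-ratios scaling, other filters or without shared-read members. The fatty acid medians with nutlin-3a shifted with the setting. In LIMA1 shRNA cells they stayed within the range of the 8 single genes, -0.63 to 0.46. In LIMA1 shRNA cells the median was 0.0023 under upper-quartile scaling and -0.22 after removal of the length and GC trend. It was -0.20 without shared-read members, where 1 of 6 genes was above 0, against 47.8% of measured genes. Upper-quartile scaling also moved the median of all measured genes in LIMA1 shRNA cells, from -0.02 to 0.05. Under upper-quartile scaling the sterol genes called lower with nutlin-3a in LIMA1 shRNA cells numbered 3, and the fatty acid genes called higher there 1. With a call size of 1, nutlin-3a gave 1 sterol gene higher and 1 lower in each line, and 0 fatty acid genes were called in any comparison. Between the lines 0 sterol genes were higher under either treatment. At size 1, 7.29% of all measured genes were higher and 6.08% lower with nutlin-3a in LIMA1 shRNA cells. In control shRNA cells the shares were 5.54% and 5.64%. Between the lines 1.26% of measured genes were higher with nutlin-3a and 1.04% without it. With a call size of 0.3, sterol genes lower with nutlin-3a in LIMA1 shRNA cells numbered 8 and sterol genes higher in control shRNA cells 6. At that size, sterol genes higher between the lines numbered 7 with nutlin-3a and 8 without, 1 was lower without it, and 3 had a lower response. At 0.3 the fatty acid genes numbered 1 higher and 3 lower with nutlin-3a in LIMA1 shRNA cells and 5 higher between the lines with nutlin-3a. Without the length and GC trend, 5 sterol genes were higher with nutlin-3a in control shRNA cells, 2 fatty acid genes were lower with it in each line and 0 were higher between the lines with nutlin-3a. For call size 0.3, upper-quartile scaling and removal of the trend, the shares of all measured genes called were not counted. Counts of called genes under these settings therefore describe the settings and not the pathways. Apart from the changes of call size, the cause of the moved counts and shifted medians was not tested. No paired analysis was possible because the labels carry no replicate numbers and each group is 1 library. Depth was near equal between libraries, and it limits calls near the threshold. The counting intervals of STARD4, CYP51A1, DHCR7, FDPS, SQLE, ELOVL6, ACSS2 and ACACA reach across 0.5 in size in some comparisons where these genes were called. Spread between cultures is unknown.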
